A study of Mus musculus with 9 samples.

Results

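The endothelial identity genes are 36 genes, chosen by symbol, that mark the cells lining blood vessels, lymphatic vessels and heart chambers. Values were available for 35 of them among the 14479 genes listed; the symbol Npr3b was not analysed here. All 35 passed the filter of a mean of at least 1 FPKM (fragments mapped per kilobase of transcript, scaled to the library: a level normalised to transcript length and library size) over the 9 libraries, as did 13249 genes in all. RNA came from the lower part of the ventricle of CD-1 mice at postnatal day 2, the day after surgery at postnatal day 1. The 3 groups were resection of the ventricular apex with left vagotomy (called vagotomy below), resection of the apex alone, and sham surgery, with 3 libraries each. All pups underwent an operation, and resection was common to the first and second group. The labels do not say whether a library came from 1 pup or a pool, so p-values here reflect the variation among these libraries, which may be technical. Sequencing depth is unknown.

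Endothelial cells hold to each other through junction proteins such as VE-cadherin and claudin 5, receive growth and stability cues through receptors such as the Tie kinases, and keep their identity through transcription factors of the ETS and SOXF families. In the heart they differ by place: capillary cells pass fatty acids to the muscle, endocardial cells line the chambers, and arterial, venous and lymphatic cells have further genes of their own. Apelin and angiopoietin 2 are signals of vessels that sprout or remodel. In whole tissue, fewer cells of a type and less RNA per cell cannot be told apart.

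All 35 genes were expressed in the apex. Their means over the 9 libraries ran from 473.2 FPKM for Fabp4, a fatty acid carrier of capillaries, and 334.1 FPKM for Cav1, which forms caveolae, down to 3.01 FPKM for Apln and 1.22 FPKM for Angpt2. Among the genes of cell junctions and the cell surface the order of the means was led by Cdh5, which encodes VE-cadherin (124.0 FPKM), Cldn5, which encodes claudin 5 (116.0 FPKM), and Eng, a co-receptor for BMP and TGF-beta ligands (85.3 FPKM). At the low end stood Vwf (7.26 FPKM), Nos3, the endothelial nitric oxide synthase (6.49 FPKM), and the ETS factor Erg (4.9 FPKM). Neighbours in this order were often no further apart than their spread over libraries: Cldn5 alone ran from 42.3 to 291.9 FPKM. Of the 35 genes, 13 lie at deposited loci that hold other genes as well (Plvap with Gtpbp3, Ramp2 with Vps25, Cav1 with Cav2 and Angpt2 with Mcph1 among them). As no source used here says whether counting was by strand, the values of these 13 are less certain.

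**Figure D1:**
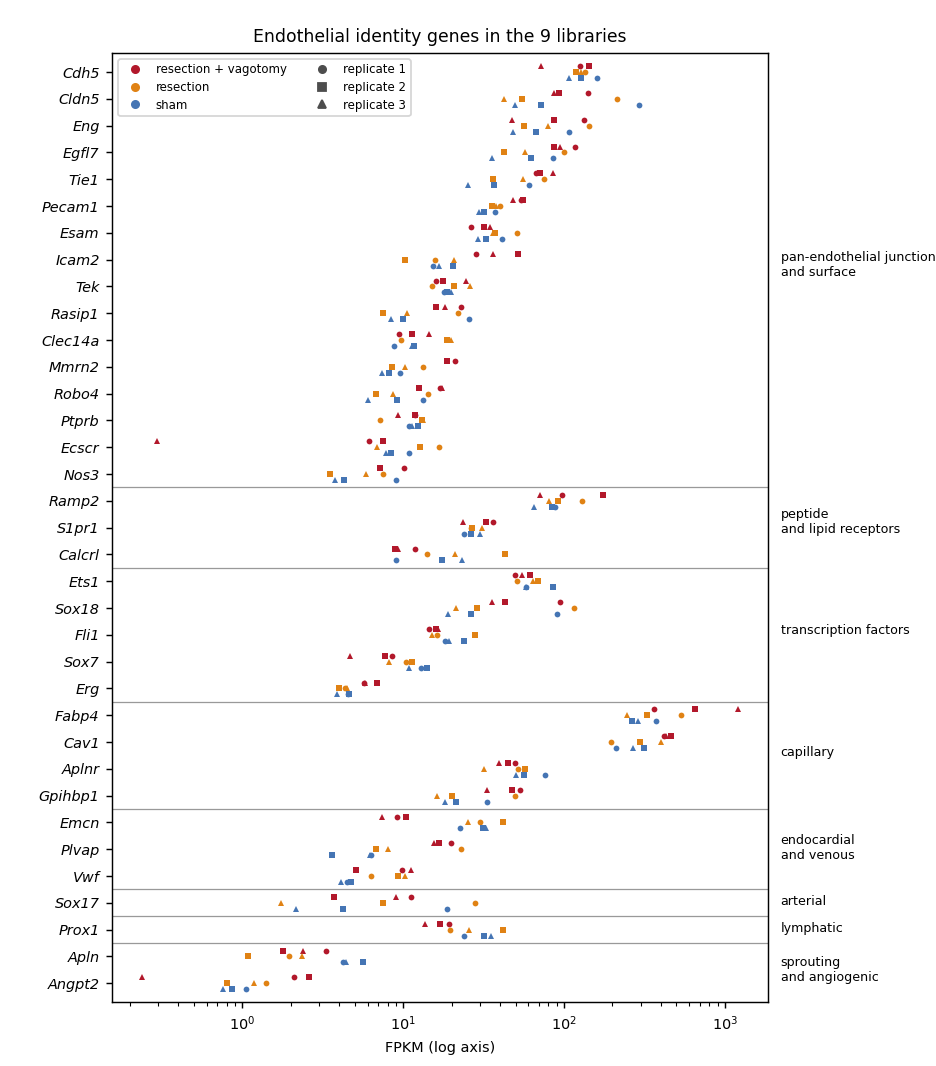
FPKM (log axis) of the 35 endothelial identity genes in each of the 9 libraries, by class; colours are the groups and symbols the replicate numbers. Circles, the libraries numbered 1, lie to the right for Cldn5 and Sox18 in all 3 groups, and the 3 red symbols of Emcn lie left of all others.

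The libraries numbered 1 stood apart in all 3 groups for genes of high GC content. Of the 35 genes, 10 (28.6%) were highest in replicate 1 within every group, against 10.4% of all tested genes; these were Cldn5, Egfl7, Eng, Gpihbp1, Mmrn2, Nos3, Plvap, Rasip1, Sox17 and Sox18, with a median transcript GC content of 58.2%. By contrast 1 gene each (2.86%) was highest in replicate 2 (Ets1) and in replicate 3 (Tek) of every group. Over all tested genes these shares were 4.32% and 5.73%. Cldn5 had 140.3, 93.6 and 86.6 FPKM in the vagotomy libraries, 212.0, 54.8 and 42.3 FPKM in the resection libraries and 291.9, 72.2 and 49.9 FPKM in the sham libraries (replicates 1 to 3). Sox18, a SOXF factor of vessels, had 94.3, 42.8 and 35.5 FPKM after vagotomy, 114.5, 28.6 and 21.2 FPKM after resection and 90.8, 26.5 and 19.0 FPKM in sham. For Cldn5 and Sox18 the spread within a group was wider than the differences between groups. The GC-rich genes also stood higher in the vagotomy libraries: the 18 of higher GC deviated from their mean over 9 libraries by a median of 0.60, 0.21 and 0.33 (log2) in vagotomy replicates 1 to 3, by 0.49, -0.53 and -0.21 in the resection libraries and by 0.25, -0.41 and -0.65 in sham. Across the 35 genes, which are not independent replicates and share these libraries, Spearman's rho between GC content and log2 change was 0.456 for vagotomy against resection (0.352 over all genes with a known GC content), 0.486 for vagotomy against sham (0.38) and 0.0821 for resection against sham (0.16). Mitochondrial genes made up 23.5% to 34.0% of all FPKM in the vagotomy libraries, 37.2% to 76.3% in the resection libraries and 51.4% to 59.3% in sham; their part in the values below was not tested. Results are therefore given also with the GC and length trend removed and with only the libraries numbered 2 and 3, both chosen after seeing the data.

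**Figure D2:**
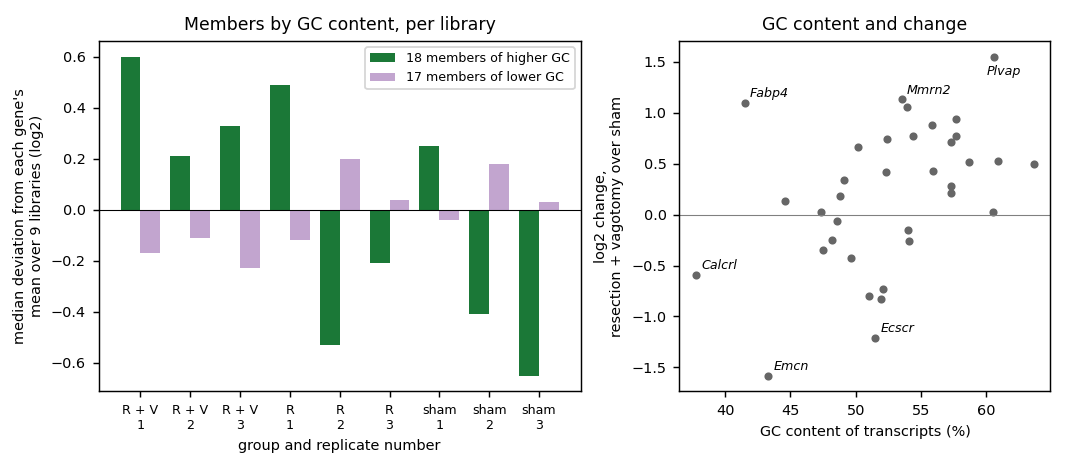
Left, median deviation (log2) of 18 genes of higher and 17 of lower GC content from their means over 9 libraries, per library (R + V, resection with vagotomy; R, resection). Right, log2 change of vagotomy over sham against transcript GC content for the 35 genes: Emcn and Calcrl, of low GC, lie below 0 and Plvap, of high GC, at 1.55, while Fabp4, of low GC, lies at 1.10.

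Vagotomy was set against resection alone to ask what the loss of left vagal input changes in the resected apex. Emcn fell after vagotomy, and it was the 1 gene of 35 past the threshold (2.86%; over all tested genes 3.52% passed, and 1.55% as lower). Emcn (ENSMUSG00000054690, chromosome 3, 137341067 to 137432185, plus strand, GRCm38) encodes endomucin, a sialomucin on the surface of endocardial, venous and capillary endothelium that hinders leukocyte adhesion. It had 9.12, 10.4 and 7.39 FPKM in the vagotomy libraries, 30.0, 41.7 and 25.2 FPKM in the resection libraries and 22.7, 31.2 and 32.6 FPKM in the sham libraries. All 3 vagotomy libraries lay below all 6 others. The log2 change, on the log2(FPKM + 1) scale that understates the change of low genes, was -1.72 (SE 0.27, adjusted p = 0.0169) against resection and -1.58 (SE 0.27, adjusted p = 0.0119) against sham, by limma's two-sided moderated test with Benjamini-Hochberg adjusted p-values over all 13249 genes. With 3 libraries a side, the smallest p of an exact permutation test is 0.1. After removal of the GC and length trend the changes were -1.49 (adjusted p = 0.0097) and -1.31 (adjusted p = 0.00703). With only the libraries numbered 2 and 3 they were -1.77 (adjusted p = 0.0737) and -1.75 (adjusted p = 0.0458). The call against resection was also lost in the fit to the 6 libraries compared (adjusted p = 0.0864), without vagotomy replicate 3 (0.0567) and without resection replicate 2 (0.0704), and the call against sham without sham replicate 2 (0.0641) or sham replicate 3 (0.0638).

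Neither of the general endothelial surface genes Pecam1 and Cdh5 was lower in all vagotomy libraries. Pecam1 (ENSMUSG00000020717, chromosome 11, 106654217 to 106750628), which encodes the adhesion molecule CD31, had 53.7, 55.6 and 48.0 FPKM after vagotomy, 40.2, 35.8 and 37.5 FPKM after resection and 37.3, 31.7 and 29.4 FPKM in sham. Here the vagotomy libraries lay above all others, with log2 changes of 0.46 against resection (adjusted p = 0.229) and 0.66 against sham (adjusted p = 0.0762; 0.0339 with the GC and length trend removed). Cdh5 had 124.9, 143.2 and 71.7 FPKM after vagotomy, 135.9, 118.0 and 126.7 FPKM after resection and 160.8, 126.6 and 108.1 FPKM in sham, and the groups overlapped. The ratio of Emcn to Pecam1 FPKM, a quantity chosen after its values were seen, was 0.17, 0.187 and 0.154 in the vagotomy libraries, 0.744, 1.16 and 0.671 in the resection libraries and 0.609, 0.985 and 1.11 in sham. Relative to Cdh5 it was 0.073, 0.0727 and 0.103 after vagotomy, 0.22, 0.354 and 0.199 after resection and 0.141, 0.247 and 0.302 in sham. The ratio to either gene did not overlap between the vagotomy libraries and the rest. For Pecam1 this had to follow, as the vagotomy libraries were lowest for Emcn and highest for Pecam1, so that ratio adds nothing to the 2 genes' values.

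**Figure D3:**
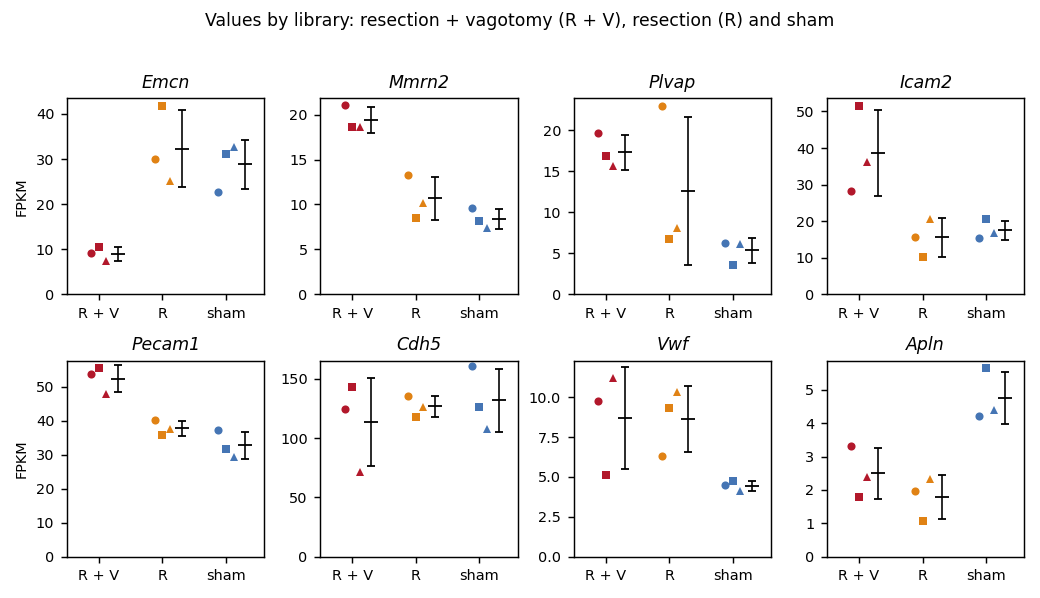
FPKM of 8 endothelial identity genes per library, with the mean and SD of each group beside the points (R + V, resection with vagotomy; R, resection; symbols give the replicate number). Emcn lies between 7.39 and 10.4 FPKM after vagotomy and at 22.7 FPKM or above elsewhere, while Mmrn2, Icam2 and Pecam1 are highest in the vagotomy libraries.

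The promoters of 4 genes with a low group are shown, those with an unadjusted p under 0.05, groups that do not overlap and a promoter entry, a choice made after their values were seen: Emcn, Calcrl and Prox1 (lower in every vagotomy library than in any resection library) and Apln (lower in every resection library than in any sham library). Each runs from 250 bases before to 50 bases after the RefSeq start in GRCm38.p6, on the gene's strand. Capitals mark matches on either strand to the ETS core letters CGGAAG or AGGAAG and to the SOX letters ACAATG or ACAAAG, which do not overlap each other here.
Emcn: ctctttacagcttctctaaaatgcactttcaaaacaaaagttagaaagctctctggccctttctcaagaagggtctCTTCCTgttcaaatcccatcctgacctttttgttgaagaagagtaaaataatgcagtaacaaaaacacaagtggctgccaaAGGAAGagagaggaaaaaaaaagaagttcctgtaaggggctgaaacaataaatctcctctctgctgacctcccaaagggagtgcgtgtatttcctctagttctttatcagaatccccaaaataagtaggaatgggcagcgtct
Calcrl: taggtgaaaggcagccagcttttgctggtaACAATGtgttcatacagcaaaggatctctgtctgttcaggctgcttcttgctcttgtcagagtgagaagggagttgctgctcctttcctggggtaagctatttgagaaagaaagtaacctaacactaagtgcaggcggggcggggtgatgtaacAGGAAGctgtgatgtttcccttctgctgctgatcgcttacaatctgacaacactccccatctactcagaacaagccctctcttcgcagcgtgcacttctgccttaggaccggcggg
Prox1: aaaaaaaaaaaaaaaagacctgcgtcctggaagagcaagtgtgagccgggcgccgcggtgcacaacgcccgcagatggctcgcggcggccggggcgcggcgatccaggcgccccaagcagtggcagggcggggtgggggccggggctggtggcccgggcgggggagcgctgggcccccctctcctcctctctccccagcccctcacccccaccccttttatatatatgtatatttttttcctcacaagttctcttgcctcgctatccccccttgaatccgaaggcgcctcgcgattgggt
Apln: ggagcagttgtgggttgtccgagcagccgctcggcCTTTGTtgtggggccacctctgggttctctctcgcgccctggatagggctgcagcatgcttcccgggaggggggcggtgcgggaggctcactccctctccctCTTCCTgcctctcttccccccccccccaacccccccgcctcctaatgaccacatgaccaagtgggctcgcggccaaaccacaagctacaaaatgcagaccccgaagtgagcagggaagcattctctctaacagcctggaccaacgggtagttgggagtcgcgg

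These windows are chr3:137340828-137341127 (plus strand), chr2:84425217-84425516 (minus strand), chr1:190170778-190171077 (minus strand) and chrX:48034804-48035103 (minus strand). The ETS letters begin 174 and 93 bases before the Emcn start, 66 before that of Calcrl and 113 before that of Apln, and the Prox1 window held neither set of letters. Of the 14 genes with an entry in the RefSeq promoter table, 9 (64.3%) held the ETS letters, against 46.4% of 27025 promoters of the same length, and 4 (28.6%) held the SOX letters, against 28.8%. A match is a description of the letters and not a site of binding.

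The other 34 genes did not pass the threshold for vagotomy against resection, and the shares at weaker criteria were at or below the background. At an unadjusted p under 0.05 there were 6 of the 35 (17.1%, against 24.2% of all tested genes), and the groups did not overlap for 9 (25.7%, against 26.2%). With the replicate number as a block, 3 of the 35 genes passed, Emcn, Icam2 and Mmrn2, and 1277 genes in all. The median log2 change was 0.12 over the 35 genes and 0.02 over all tested genes. Icam2 (ENSMUSG00000001029, chromosome 11, 106377656 to 106388075), an adhesion molecule on resting endothelium that binds leukocyte integrin, had 28.2, 51.5 and 36.1 FPKM after vagotomy, 15.8, 10.3 and 20.7 FPKM after resection and 15.4, 20.5 and 16.7 FPKM in sham. Each vagotomy library was above all other libraries, with a log2 change of 1.26 (SE 0.31, adjusted p = 0.0541; 0.0425 with the replicate number as a block) against resection and 1.06 (SE 0.31, adjusted p = 0.0547) against sham. Calcrl, which with Ramp2 forms the receptor for the vascular peptide adrenomedullin, had 11.9, 8.92 and 9.28 FPKM after vagotomy, 14.1, 42.8 and 20.9 FPKM after resection and 9.01, 17.5 and 23.3 FPKM in sham (log2 change -1.15 against resection, SE 0.42, adjusted p = 0.133). Its partner Ramp2 had 97.3, 174.7 and 70.4 FPKM after vagotomy, 129.4, 92.2 and 80.9 FPKM after resection and 88.0, 84.4 and 64.9 FPKM in sham, with overlapping groups. Ecscr, a surface protein of endothelial migration, had 6.17, 7.45 and 0.296 FPKM after vagotomy and 16.8, 12.8 and 6.88 FPKM after resection, where vagotomy replicate 3 alone was near 0 (log2 change -1.54, SE 0.61, adjusted p = 0.161). In the authors' deposited table for this contrast, Icam2, Mmrn2, Fabp4 and Robo4 were higher and Emcn, Calcrl, Ecscr and Prox1 lower at a Cuffdiff q under 0.05, which is 8 of 35 (22.9%, against 17.1% of the genes that table tests, 8.55% higher and 8.6% lower). The authors' deposited table gives q-values of 0.000995 for Emcn and Calcrl, 0.0346 for Icam2 and 0.00314 for Fabp4.

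Against sham, the vagotomy libraries showed more differences, with Mmrn2 and Plvap higher and Emcn lower. These 3 genes are 8.57% of the 35, against 10.1% of all tested genes, of which 5.81% were higher and 4.26% lower. Mmrn2 (ENSMUSG00000041445, chromosome 14, 34375465 to 34404287, plus strand) encodes multimerin 2, a matrix glycoprotein that endothelial cells deposit around themselves. It had 21.1, 18.6 and 18.6 FPKM after vagotomy, 13.3, 8.5 and 10.2 FPKM after resection and 9.58, 8.13 and 7.37 FPKM in sham. The vagotomy libraries lay above the other 6, with a log2 change of 1.13 (SE 0.23, adjusted p = 0.0192) against sham and 0.83 (SE 0.23, adjusted p = 0.0739; 0.0375 with the replicate number as a block) against resection. With the GC and length trend removed both passed (adjusted p = 0.00845 and 0.0357). With only the libraries numbered 2 and 3 the adjusted p was 0.0486 against sham, and the call was lost without vagotomy replicate 1 (0.0552), sham replicate 2 (0.0995) or sham replicate 3 (0.0917). Clec14a, a C-type lectin of endothelium that binds multimerin 2, had 9.48, 11.3 and 14.4 FPKM after vagotomy, 9.74, 18.7 and 19.7 FPKM after resection and 8.71, 11.6 and 11.4 FPKM in sham, so its groups overlapped in every comparison.

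Plvap (ENSMUSG00000034845, chromosome 8, 71497765 to 71511752, minus strand) encodes the protein that builds the diaphragms of fenestrae and caveolae and is most abundant in venous and fenestrated endothelium. It had 19.7, 16.8 and 15.6 FPKM after vagotomy, 22.9, 6.73 and 8.07 FPKM after resection and 6.27, 3.63 and 6.18 FPKM in sham. Every library of either resected group was above every sham library. The log2 change was 1.55 (SE 0.40, adjusted p = 0.0378) for vagotomy against sham, 0.93 (SE 0.40, adjusted p = 0.789) for resection against sham and 0.62 (SE 0.40, adjusted p = 0.368) for vagotomy against resection. The call against sham held with the GC and length trend removed (1.12, adjusted p = 0.0281) and with only the libraries numbered 2 and 3 (1.58, adjusted p = 0.0466). It was lost in 7 of 9 fits with a library left out: without vagotomy replicates 1, 2 and 3 (0.0913, 0.0838 and 0.0806), resection replicate 3 (0.0502) and sham replicates 1, 2 and 3 (0.0525, 0.155 and 0.115).

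In this comparison 12 of the 35 genes had an unadjusted p under 0.05 (34.3%, against 30.1% of all tested genes), and the groups did not overlap for 17 (48.6%, against 36.7%), 10 of them higher after vagotomy (28.6%, against 19.7% of all tested genes) and 7 lower (20.0%, against 17.0%). The higher ones were Cav1, Egfl7, Erg, Gpihbp1, Icam2, Mmrn2, Pecam1, Plvap, Tie1 and Vwf, and the lower ones Apln, Aplnr, Ecscr, Emcn, Fli1, Prox1 and Sox7. The median log2 change was 0.28 (0.48 with only the libraries numbered 2 and 3, 0.11 once the trend in GC and length was taken out), against 0.03 over all tested genes. Tie1, an orphan kinase that modulates the angiopoietin receptor, had 67.2, 71.2 and 84.9 FPKM after vagotomy, 75.2, 36.4 and 55.3 FPKM after resection and 60.2, 36.6 and 25.3 FPKM in sham (log2 change against sham 0.94, SE 0.36, adjusted p = 0.114). The angiopoietin receptor gene Tek had 16.1, 17.8 and 24.6 FPKM after vagotomy, 15.1, 20.8 and 26.0 FPKM after resection and 17.9, 18.8 and 19.7 FPKM in sham. Thus vagotomy libraries lay above sham for Tie1, while the groups overlapped for Tek.

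Resection alone was compared with sham to ask how the vessels of the apex respond to the loss of its tip. None of the 35 genes passed by limma (0.294% of all tested genes did), and 3 had an unadjusted p under 0.05 (8.57%, against 5.89% of all tested genes). For these 3, Plvap, Vwf and Apln, the groups did not overlap either (8.57%, against 10.8%). Vwf (ENSMUSG00000001930, chromosome 6, 125546774 to 125686679, plus strand) encodes the clotting protein von Willebrand factor, stored by venous and endocardial endothelium and by platelets. It had 6.31, 9.32 and 10.3 FPKM after resection and 4.48, 4.74 and 4.12 FPKM in sham (log2 change 0.80, SE 0.30, adjusted p = 0.602), while the vagotomy libraries had 9.77, 5.12 and 11.2 FPKM. Each resected library was above each sham library. The summed level of 5 platelet markers was 12.3 to 23.3 FPKM after vagotomy, 17.0 to 51.2 FPKM after resection and 5.13 to 7.4 FPKM in sham. Their part in the Vwf values was not tested.

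Apln (ENSMUSG00000037010, chromosome X, 48025146 to 48034853, minus strand) encodes apelin, a peptide made by sprouting and hypoxic endothelium. It had 1.96, 1.08 and 2.34 FPKM after resection and 4.22, 5.64 and 4.38 FPKM in sham (log2 change -1.06, SE 0.28, adjusted p = 0.257), and the vagotomy libraries had 3.32, 1.80 and 2.38 FPKM. All 6 resected libraries were below all 3 sham libraries. Its receptor gene Aplnr had 49.4, 44.6 and 39.6 FPKM after vagotomy, 52.0, 57.1 and 31.7 FPKM after resection and 75.9, 56.2 and 50.4 FPKM in sham, with a log2 change of -0.39 (adjusted p = 1.0) for resection against sham. Angpt2, the angiopoietin that loosens vessels for remodelling, was near the limit of expression, at 2.09, 2.59 and 0.238 FPKM after vagotomy, 1.40, 0.797 and 1.18 FPKM after resection and 1.06, 0.859 and 0.757 FPKM in sham. The authors' deposited table for resection against sham has q under 0.05 for 4 of the 35 genes (11.4%, against 6.15% of the genes it tests, 4.21% higher and 1.94% lower), with Vwf (q = 0.00732), Plvap (q = 0.0459) and Clec14a (q = 0.0448) higher and Apln (q = 0.00161) lower.

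**Figure D4:**
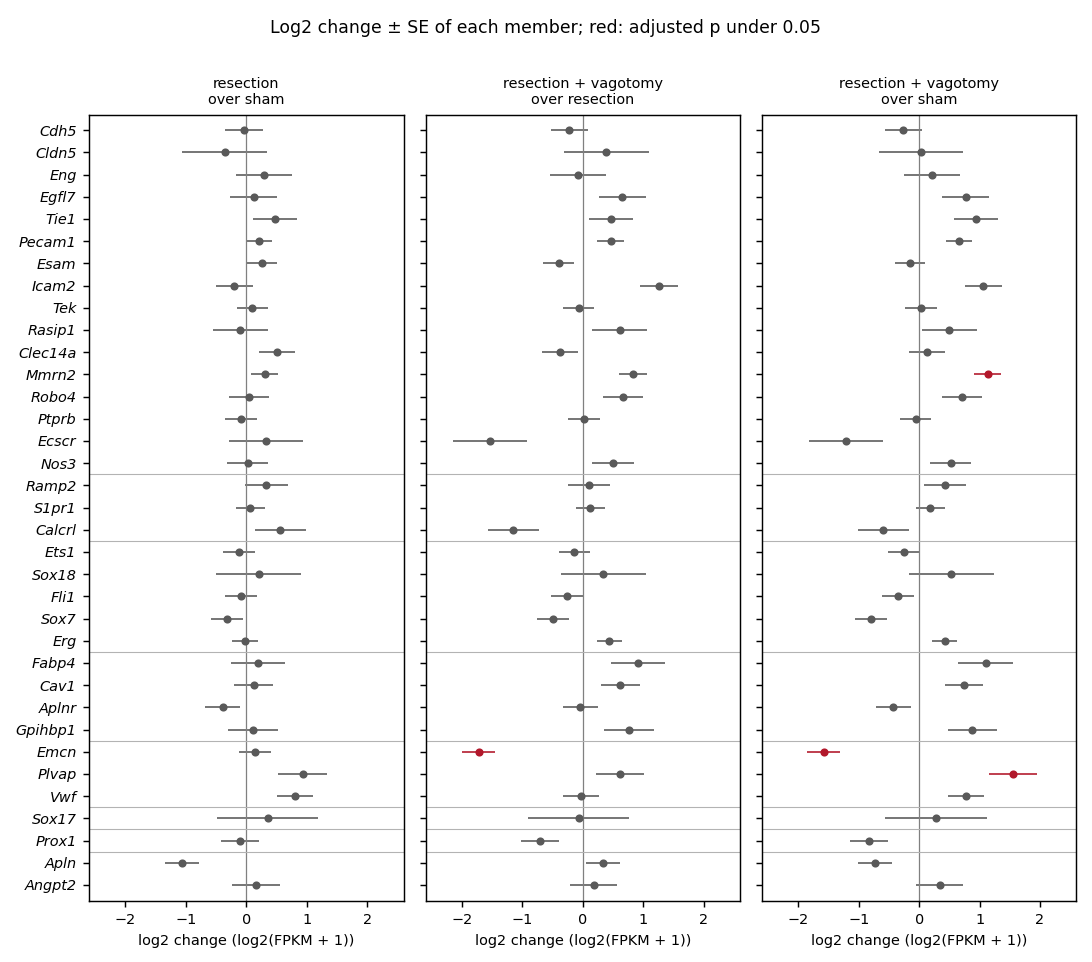
Log2 change with its SE for each of the 35 genes in the 3 comparisons, on the log2(FPKM + 1) scale; red marks an adjusted p under 0.05. Red points are absent for resection over sham, Emcn is red for vagotomy over resection, and Emcn, Mmrn2 and Plvap are red for vagotomy over sham.

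Taken by class, the genes did not move as a block. Of the 16 genes of junctions and the cell surface, 10 had higher means after vagotomy than after resection (51.6% of all tested genes did) and 12 than in sham (51.8%), with median log2 changes of 0.43 and 0.36 and a range of -1.21 to 1.13 against sham. The 4 capillary genes had medians of 0.69 and 0.81, with 3 of 4 higher and 0 past the threshold. Cav1 had 420.2, 464.7 and 432.2 FPKM after vagotomy, 196.3, 298.7 and 397.8 FPKM after resection and 211.0, 315.6 and 270.0 FPKM in sham, above all others in each vagotomy library (log2 change against sham 0.74, SE 0.32, adjusted p = 0.15). Fabp4 varied more, with 363.5, 655.0 and 1201.9 FPKM after vagotomy, 537.2, 328.3 and 244.5 FPKM after resection and 372.4, 266.4 and 289.8 FPKM in sham. Its vagotomy libraries therefore overlapped both other groups (log2 change against sham 1.10, SE 0.45, adjusted p = 0.134). Fabp4 is also made by adipocytes, and none of 5 adipocyte markers had a value to analyse. Gpihbp1, which carries lipoprotein lipase to the capillary lumen, had 53.3, 47.5 and 33.3 FPKM after vagotomy, 49.9, 20.1 and 16.3 FPKM after resection and 33.0, 21.3 and 18.3 FPKM in sham.

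The endocardial and venous genes pointed apart after vagotomy, with Emcn lower than sham and Plvap higher. For the arterial and lymphatic classes a single gene each was named. Sox17, the SOXF factor of arteries, had 11.2, 3.72 and 9.08 FPKM after vagotomy, 28.1, 7.49 and 1.73 FPKM after resection and 18.7, 4.20 and 2.17 FPKM in sham, a spread within groups that exceeded the differences between them. Prox1, the factor that sets lymphatic identity and is also made by cardiomyocytes, had 19.2, 16.9 and 13.6 FPKM after vagotomy, 19.4, 41.5 and 25.7 FPKM after resection and 23.8, 31.7 and 35.0 FPKM in sham. The vagotomy libraries were below all others, with log2 changes of -0.71 (SE 0.31, adjusted p = 0.186) against resection and -0.83 (SE 0.31, adjusted p = 0.103) against sham.

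Of the 5 transcription factors, 2 had higher and 3 lower means after vagotomy than in sham, and 0 passed. Sox7, a SOXF factor of early endothelium, had 8.49, 7.68 and 4.66 FPKM after vagotomy, 10.4, 11.3 and 8.19 FPKM after resection and 12.9, 14.1 and 10.8 FPKM in sham. Its vagotomy libraries lay below sham (log2 change -0.80, SE 0.26, adjusted p = 0.0733; 0.049 with the GC and length trend removed). Erg, the ETS factor of mature endothelium, had 5.74, 6.90 and 5.76 FPKM after vagotomy, 4.32, 3.96 and 4.46 FPKM after resection and 4.52, 4.61 and 3.87 FPKM in sham, higher in each vagotomy library (log2 change against sham 0.42, SE 0.21, adjusted p = 0.208). The ETS factor genes Ets1 and Fli1, which leukocytes also express, lie 93.4 kb apart on chromosome 9. Ets1 had 49.5, 61.7 and 55.0 FPKM after vagotomy, 51.3, 68.4 and 63.7 FPKM after resection and 58.2, 85.2 and 57.7 FPKM in sham, and Fli1 had means of 15.7, 19.7 and 20.5 FPKM in the same groups. Both had small changes (log2 -0.25 and -0.35 for vagotomy against sham). Of the other close pairs, Icam2 and Pecam1 lie 266 kb apart on chromosome 11, and both were higher in all vagotomy libraries than in all others. Esam and Robo4 lie 113 kb apart on chromosome 9, with log2 changes of -0.40 and 0.66 for vagotomy against resection, and Aplnr and Calcrl lie 711 kb apart on chromosome 2, with -0.04 and -1.15.

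The remaining genes gave overlapping groups in most comparisons. S1pr1, the sphingosine 1-phosphate receptor that keeps junctions tight, had 36.3, 32.8 and 23.7 FPKM after vagotomy, 26.5, 26.6 and 31.0 FPKM after resection and 24, 26.5 and 30.1 FPKM in sham. Ptprb, the phosphatase that restrains the Tie2 receptor and VE-cadherin, averaged 11.0 ± 1.47 FPKM after vagotomy, 11.1 ± 3.41 FPKM after resection and 11.5 ± 0.756 FPKM in sham (SD, n = 3 each). Esam, a junctional adhesion molecule, averaged 30.9 ± 4.15 FPKM after vagotomy, 41.4 ± 8.51 FPKM after resection and 34.4 ± 6.34 FPKM in sham, and its vagotomy libraries were below all resection libraries (log2 change -0.40, adjusted p = 0.359). Egfl7, a secreted factor of vessel growth, averaged 99.3 ± 15.1 FPKM after vagotomy, 66.4 ± 29.5 FPKM after resection and 60.8 ± 24.8 FPKM in sham. Egfl7 was highest in replicate 1 of every group, and its vagotomy libraries lay above all sham libraries. Eng (88.6 ± 42.5, 92.8 ± 44.7 and 74.4 ± 30.6 FPKM after vagotomy, after resection and in sham), Rasip1, an effector of RAS-family GTPases needed for vessel lumens (19.1 ± 3.55, 13.3 ± 7.61 and 14.7 ± 9.58 FPKM), Nos3 (8.15 ± 1.67, 5.63 ± 2.01 and 5.70 ± 2.89 FPKM) and the guidance receptor gene Robo4 (15.7 ± 2.69, 9.86 ± 3.88 and 9.49 ± 3.63 FPKM) also overlapped between the groups in each comparison.

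Over the 3 groups jointly, limma's moderated F-test called 2 of the 35 genes (5.71%, against 5.89% of all tested genes), Emcn (adjusted p = 0.0123) and Mmrn2 (adjusted p = 0.0383). With only the libraries numbered 2 and 3 it called 0, where 51 genes passed in all. It called 1 of the 35 in 7 of 9 fits with a library left out, all except those without resection replicates 1 (3) and 2 (2).

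Further genes of each vessel type, from lists beside the 35, were read against the same fit. The venous list also holds Aplnr, which is among the 35. For resection against sham and for vagotomy against resection none of their genes passed (0.294% and 3.52% of all tested genes did). With the replicate number as a block, though, Aqp1 (adjusted p = 0.0403 by limma) and Cgnl1 (0.0461) passed for vagotomy against resection. For vagotomy against sham 3 of 15 further capillary genes rose, where 5.81% of all tested genes were higher and 4.26% lower. Car4, a carbonic anhydrase of capillary surfaces, had 50.5, 97.3 and 76.2 FPKM after vagotomy and 19.9, 15.2 and 18.7 FPKM in sham (log2 change 1.96, SE 0.43, adjusted p = 0.024). Its resection libraries, with 36.3, 19.1 and 71.9 FPKM, overlapped both other groups. The others were the water channel gene Aqp1 (log2 change 1.31, adjusted p = 0.0481) and the protease inhibitor gene Timp4 (log2 change 1.59, adjusted p = 0.0307). For both, every vagotomy library was above every resection library, though Timp4 had 8.4 FPKM in resection replicate 3 and 8.43 FPKM in vagotomy replicate 2. The deposited locus of Timp4 holds 3 genes, so its value is less certain. The median over the 15 was 0.33, and the VEGF receptor gene Kdr stood at 45.0 FPKM after vagotomy, 48.0 FPKM after resection and 50.4 FPKM in sham. Of 11 tested endocardial genes 1 rose (5.81% of all tested genes were higher), Cgnl1, a junction protein, with 15.7, 23.3 and 44.0 FPKM after vagotomy and 10.9, 10.0 and 7.72 FPKM in sham (log2 change 1.33, SE 0.34, adjusted p = 0.0362). The median of the endocardial list was -0.09. Npr3, a natriuretic peptide receptor of endocardium, averaged 4.82 ± 1.61 FPKM after vagotomy, 7.32 ± 4.01 FPKM after resection and 6.75 ± 2.32 FPKM in sham, and the endocardial factor gene Nfatc1 averaged 4.77, 4.76 and 4.66 FPKM in the same groups (both chosen after their values were seen).

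The inflamed endothelium list had the highest medians of the 7 further lists against sham, 1.12 for vagotomy and 1.01 for resection. Over all tested genes the medians were 0.03 and -0.01. All 6 tested genes of the list had higher means than sham in both, with log2 changes of 0.05 to 1.57 and 0.24 to 1.32. For vagotomy, 51.8% of all tested genes had a higher mean than sham. Icam1, an adhesion molecule that cytokines induce on endothelium and on leukocytes, rose after vagotomy with 10.6, 11.0 and 9.58 FPKM, against 3.64, 2.79 and 2.16 FPKM in sham (log2 change 1.57, SE 0.26, adjusted p = 0.0113), while the resection libraries had 6.46, 4.17 and 7.53 FPKM. Its deposited locus holds 6 genes, so its value is less certain. Selp, which encodes P-selectin of endothelium and platelets, had 1.84, 1.25 and 1.59 FPKM after vagotomy, 1.33, 2.27 and 3.55 FPKM after resection and 0.344, 0.143 and 0.457 FPKM in sham (adjusted p = 0.0678 for vagotomy and 0.15 for resection, each against sham). The deposited locus of Selp holds 5 genes, so its value is less certain as well. Leukocyte marker sums were also higher than sham in both resected groups. The summed level of 8 neutrophil markers was 140.4 to 379.0 FPKM after vagotomy, 239.2 to 332.1 FPKM after resection and 22.9 to 50.6 FPKM in sham. That of 10 macrophage markers was 156.6 to 232.9, 153.1 to 271.1 and 57.6 to 77.0 FPKM in the same groups. Lyz2 weighed most in the macrophage sum, with means of 131.1, 158.6 and 27.2 FPKM. Between vagotomy and resection both sums overlapped. The part of leukocytes or platelets in the levels of Icam1, Selp, Icam2 and Pecam1, which these cells also make, was not tested.

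Of 13 tested genes of tip cells and sprouting 1 passed (4.26% of all tested genes were lower), Kcne3, a potassium channel subunit, which fell after vagotomy to 2.36, 2.36 and 1.01 FPKM, against 4.26, 10.3 and 11.1 FPKM in sham (log2 change -1.66, SE 0.37, adjusted p = 0.0254). None of 16 arterial, 7 tested venous and 9 tested lymphatic genes passed for vagotomy against sham, where 10.1% of all tested genes did. The medians of these 3 lists were 0.06, 0.05 and 0.24. The arterial receptor gene Notch1 had the smallest p among the arterial genes (log2 change -0.77, adjusted p = 0.076). Its deposited locus holds 4 genes, so its value is less certain. The lymphatic genes include the lymphatic growth factor receptor gene Flt4 (log2 change 0.21) and the hyaluronan receptor gene Lyve1 (-0.20, chosen after its values were seen). Neither these genes nor Prox1 itself (adjusted p = 0.103 by limma for vagotomy against sham) passed the threshold.

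**Figure D5:**
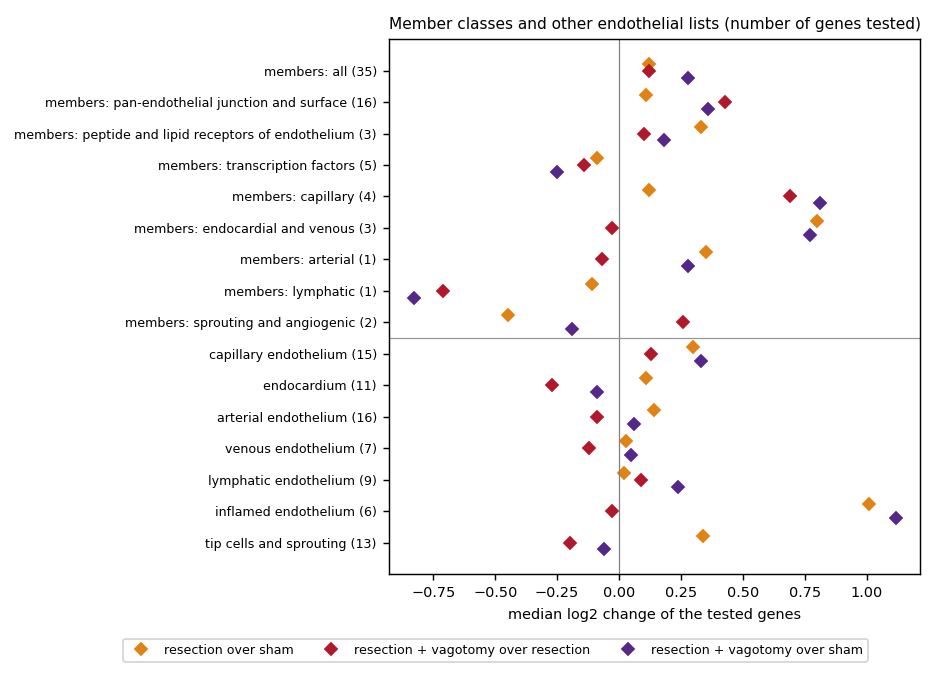
Median log2 change of the tested genes in each class of the 35 genes (above the line) and in 7 further endothelial lists (below it), for the 3 comparisons; the number of genes is in brackets. The inflamed endothelium list lies near 1 in both comparisons with sham, and the capillary class at 0.81 for vagotomy over sham.

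Summed marker levels of cell types that share the tissue differed between the groups as well. The summed level of 10 cardiomyocyte markers was 19570.4 to 43079.2 FPKM after vagotomy, 9795.2 to 14478.5 FPKM after resection and 13619.8 to 15427.4 FPKM in sham, with Myh6 and Actc1 left out as failed estimates that are listed at 0 in all vagotomy libraries. A few genes weigh most in this sum: Tnnt2 had 18822.0 FPKM in vagotomy replicate 3, and Myl3 averaged 7662.8, 897.9 and 1211.1 FPKM in the 3 groups. Against sham 2 of the 10 passed as higher (5.81% of all tested genes did), Actn2 and Myl3. Ryr2 averaged 140.0, 147.0 and 148.0 FPKM and Pln 1459.4, 1423.3 and 1476.1 FPKM, so the list did not move as a block. Pericyte and smooth muscle markers summed to 568.8 to 728.6 FPKM after vagotomy, 429.5 to 559.3 FPKM after resection and 469.8 to 527.3 FPKM in sham. Of these 10, 1 rose after vagotomy against sham (5.81% of all tested genes did), Tagln (log2 change 1.97, adjusted p = 0.00767 by limma). Its deposited locus holds 6 genes, so its value is less certain. Of 10 genes of cell division 6 fell after vagotomy against sham (4.26% of all tested genes did), with a median log2 change of -1.19. Their median was already -1.0 for resection against sham, and it was -0.31 for vagotomy against resection. In these 2 comparisons 0 of the 10 passed (0.294% and 3.52% of all tested genes did). The endothelial identity genes summed to 2082.5 to 2600.8 FPKM after vagotomy, 1566.3 to 2190.2 FPKM after resection and 1360.7 to 1985.2 FPKM in sham, a sum that Fabp4 and Cav1 lead. What these other cells contribute to the endothelial values was not tested.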

How the data were processed

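RNA-seq values of 9 libraries were used. The deposited matrix holds FPKM with a pseudocount of 1, which was subtracted; the authors' tables hold group FPKM with Cuffdiff p-values and q-values. The submitters' processing notes name TopHat2 2.0.9, Cufflinks 2.1.1, Cuffdiff 2.1.1 and GRCm38; whether counting used strand is not given in the sources used here. Values were analysed as log2(FPKM + 1), computed from the deposited FPKM, with limma 3.58.1 in R 4.3.3: a filter of 1 FPKM on the mean over libraries, 1 mean per group over all 9 libraries, a mean-variance trend, two-sided moderated tests, and Benjamini-Hochberg adjustment over 13249 genes at 0.05. The procedure was tested on simulated data. Read depth is unknown. GENCODE M21 gave positions, lengths and GC content (14307 of 14479 identifiers), and RefSeq the promoters.

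Symbols chose the members, not values, but members, lists and classes were chosen with earlier results of these data known. Values in every library are given by rule for each member past the threshold, the 2 of smallest p per class and contrast, and Pecam1, Cdh5 and Emcn; further members are shown to account for all. Of other lists, genes past the threshold and up to 3 of smallest p are named. The comparisons share libraries, so they are not independent. Replicate numbers are those of the sample titles, and the submitters' column headings number replicate 3 differently in each group. Same-numbered vagotomy and resection libraries deviated together (correlations 0.199, 0.141 and 0.117). The pairing, a hint from the data and not from the labels, is therefore given beside that comparison as a block. Against sham not all such correlations were above 0.1. Alternatives were pseudocounts of 0.1 and 5, no filter or 5 FPKM, upper-quartile and quantile scaling, other moderation, library weights, the replicate number as a block, fewer libraries, Cuffdiff, and, added after seeing the data, removal of the GC and length trend, failed estimates or non-coding genes, and only the libraries numbered 2 and 3.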

Additional observations from a re-analysis of the deposited data

How the results depend on the processing

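No gene named with a test changed sign under the alternatives run, while the endothelial medians near 0 reached 0.00 and -0.00 without sham replicate 3 (resection against sham) and without vagotomy replicate 1 (vagotomy against resection). For resection against sham, 39 genes passed; the count was 66 and 23 with pseudocounts of 0.1 and 5, 74 with robust moderation, 417 with library weights, 13 with the 6 libraries compared, 89 after removal of the GC and length trend (73 with the block as well), 86 with protein-coding genes, 4 with the libraries numbered 2 and 3, and 855 by Cuffdiff. Of the endothelial identity genes 1 (Apln) passed with library weights and 4 by Cuffdiff. For vagotomy against resection (466 genes, 1 endothelial) the counts were 887 and 3 under library weights, 29 and 0 with the 6 libraries compared, 1248 and 2 after removal of the trend, 51 and 0 with the libraries numbered 2 and 3, and 2405 and 8 by Cuffdiff; 2 endothelial genes passed with the 5 FPKM filter, upper-quartile scaling, robust moderation or protein-coding genes. For vagotomy against sham (1334 and 3) they were 6389 and 21 with library weights, 2170 and 5 after that removal, and 603 genes with the libraries numbered 2 and 3, where the endothelial median was 0.48 in place of 0.28. The F-test (781 and 2) gave 5511 and 15 with library weights, 1660 genes with the trend removed, 51 and 0 with the libraries numbered 2 and 3, and 1 endothelial gene with upper-quartile scaling. The library weights did not fully converge (sham replicate 2 had a weight of 14.7). The cause of these shifts was not tested. With the replicate number as a block, 1277, 2413 and 1632 genes passed for vagotomy against resection, against sham and in the F-test, with 3 and 7 endothelial genes in the first and second; with the trend removed in the same fit it was 1468 and 3, 2389 and 5, and 1809 genes. Against sham, the deviations of same-numbered libraries had correlations from -0.0193 to 0.498, not all above 0.1. Sham replicate 3 correlated best with resection replicate 2 (0.335), so no pairing was taken from the numbers there. For vagotomy against resection all 3 were above 0.1, but low, and the labels give no pairing. The column headings also number replicate 3 differently in each group, so calls made only with the block are less certain. There the block changed no call of an endothelial or further listed gene other than those of Icam2, Mmrn2, Aqp1, Cgnl1, Kcnj8, Tagln, Retnlg and Wt1, which passed with it. Leaving out each library gave 11 to 59, 42 to 591, 100 to 1701 and 112 to 1087 genes and 0 to 0, 0 to 2, 0 to 4 and 1 to 3 endothelial genes in the 3 comparisons and the F-test, and medians of 0.00 to 0.30, -0.00 to 0.35 and 0.14 to 0.51. The fewest genes came without sham replicate 2 (11 and 100), resection replicate 2 (42) and sham replicate 3 (112), and no endothelial gene passed against sham without sham replicate 2 or 3. Emcn passed in 21 of 25 alternatives against resection and 23 of 25 against sham, Mmrn2 in 22 and Plvap in 18 of 25 against sham. Unknown read depth limits the reading of low genes such as Angpt2 and Apln most.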

Other observations

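The partners of the neutrophil protein calprotectin had unequal values after vagotomy: S100a8 had 35.7, 60.4 and 32.3 FPKM after vagotomy, 202.6, 177.7 and 114.3 FPKM after resection and 11.4, 20.3 and 30.9 FPKM in sham, while S100a9 had 50.8, 156.9 and 213.5 FPKM after vagotomy, 57.8, 23.0 and 55.5 FPKM after resection and 4.90, 6.29 and 6.84 FPKM in sham. Of the red cell globin genes, Hba-a2 had 109.5, 122.8 and 72.2 FPKM after vagotomy and 75.7, 18.7 and 26.0 FPKM after resection, while Hba-a1, Hbb-bs and Hbb-bt had lower means after vagotomy (Hba-a1 with 57.4, 69.4 and 75.4 FPKM after vagotomy and 145.5, 131.0 and 296.3 FPKM after resection). Against resection the adjusted p by limma was 0.0344 for S100a8 (log2 change -1.94), 0.119 for S100a9 (1.49), 0.13 for Hba-a2 (1.54), 0.289 for Hba-a1 (-1.40), 0.119 for Hbb-bs (-2.10) and 0.0809 for Hbb-bt (-2.31). Of the 6, S100a8 alone passed, and the difference between the genes of a pair was not tested. These genes were chosen after their values were seen, and the globin genes have near-identical copies among which reads could be split.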
